A study of Mus musculus with 14 samples.

Results

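Expression of 31 genes of the neuronal cytoskeleton, axon and synapse was measured by RNA sequencing in 14 primary small cell lung cancers of genetically engineered mice. The genes are a list of names, common markers of the neuronal programme, and no measured value entered the rule. The list was, however, chosen with earlier results of these data known. All 31 were found among the 23284 genes counted, 30 under their own symbol and Map2 under the older symbol Mtap2. Of these, 29 passed the filter on low counts and entered the test. The other 2, Nhlh1 and Nhlh2, did not pass. The tumours were of 2 genotypes, with 7 libraries of each: Rb1/Trp53/Crebbp (RPC) and Rb1/Trp53 (RP). Both genotypes carry deletions of the tumour suppressors Rb1 and Trp53, and RPC tumours also one of Crebbp, a histone acetyltransferase that binds the transcription factor CREB. The comparison of RPC with RP addresses which neuronal genes differ with Crebbp deletion in this cancer. Samples were whole primary tumours. The sources used here give neither the age of the mice nor the Cre driver nor the deleted exons. Tumours are numbered in the labels without a statement that each is from its own mouse, and the spread behind every p-value is that between these 14 samples.

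Small cell lung cancer cells are neuroendocrine: they carry secretory granules and express many genes of neurons. Microtubule and neurofilament proteins build the axon, kinesins carry cargo along it, and adhesion molecules steer its tip. At the synapse, a complex of SNARE proteins fuses vesicles with the membrane when calcium enters, and in neuroendocrine cells the same proteins release hormone granules. The repressor REST keeps many of these genes silent outside neurons.

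Libraries held between 10060969 and 24052799 counts in genes for RPC and between 10965714 and 23678648 for RP. Crebbp itself had 57.9, 64.6 and 69.8 CPM (counts per 1000000; lowest, median and highest) in RPC tumours, against 59.3, 69.9 and 96.9 CPM in RP tumours, and since the deleted exons are not known this level does not test the labels. All 12 neuroendocrine markers were over 1 CPM in all 14 tumours, with summed levels of 4413 to 7152 CPM in RPC tumours and 5707 to 13272 CPM in RP tumours. RPC tumours 3, 5 and 6 stood apart from the other 11. Their summed macrophage markers came to 4.91 to 8.46 CPM, against 407 to 1950 CPM in the others. Their fibroblast markers came to 3.45 to 126 CPM, against 212 to 819 CPM, and their endothelial markers to 10.6 to 118 CPM, against 351 to 2382 CPM. Single markers went the other way in RPC tumour 5, which held the highest Pdgfra (117 CPM), Lum (8.02 CPM) and Kdr (82.8 CPM) of all 14 tumours. Its other fibroblast markers were under 1 CPM and its other endothelial markers at most 2.06 CPM. Counts and the results these 3 tumours touch most are therefore also given without them. Cdh5, Emcn and Cldn5 of the endothelial list and Adgre1 of the macrophage list had 0 CPM in each of RPC tumours 3, 5 and 6. The lowest levels of these genes in the other 11 tumours were 10.1, 4.88, 2.55 and 5.70 CPM. In whole tumours, fewer cells of a type and less RNA per cell cannot be told apart, and which of them applied here was not tested. Nerve was read in the same way: 10 Schwann cell and nerve glia markers, 4 of them over 1 CPM in all 14 tumours, summed to 160 to 284 CPM in RPC tumours and 137 to 372 CPM in RP tumours, with Sox10, Cdh19 and S100b under 1 CPM in all 14. The 10 peripheral neuron markers summed to 26.2 to 240 CPM in RPC tumours and 30.4 to 262 CPM in RP tumours, with Scn10a, a sodium channel of sensory neurons, at no more than 0.273 CPM. The part of such cells in the results was not tested.

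Of the 29 members tested, 2 were higher in RPC tumours and 0 were lower (quasi-likelihood test of edgeR, p adjusted by Benjamini-Hochberg over all 14804 genes tested, under 0.05). Over all genes tested, 2.21% were called, 1.09% as higher and 1.12% as lower. The 2 were Gap43, a protein of the growth cone, and Kif5a, a kinesin of axonal transport. At an unadjusted p under 0.05, 7 members were higher and 2 were lower, where 10.3% and 11.1% of all genes tested were, 21.3% in all. For 10 members the log2 fold change was 1 or more in size, against 14.6% of all genes tested. Fold changes were above 0 in RPC for 18 members and below 0 for 11, with a median log2 fold change of 0.45, against 0.002 and 50.2% above 0 for all genes tested. Without RPC tumours 3, 5 and 6 the members' median was 0.087, 17 of 29 were above 0 and 0 were called, while 0.0716% of all genes tested were called. DESeq2 called 7 members over all 14 tumours, adding Map2, Stmn2, Rtn1 and Gng3 as higher and Nefl as lower, where it called 1431 genes, 10.1% of those it tested. limma-voom called Kif5a only, with 503 genes called, or 3.4%.

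**Figure D1:**
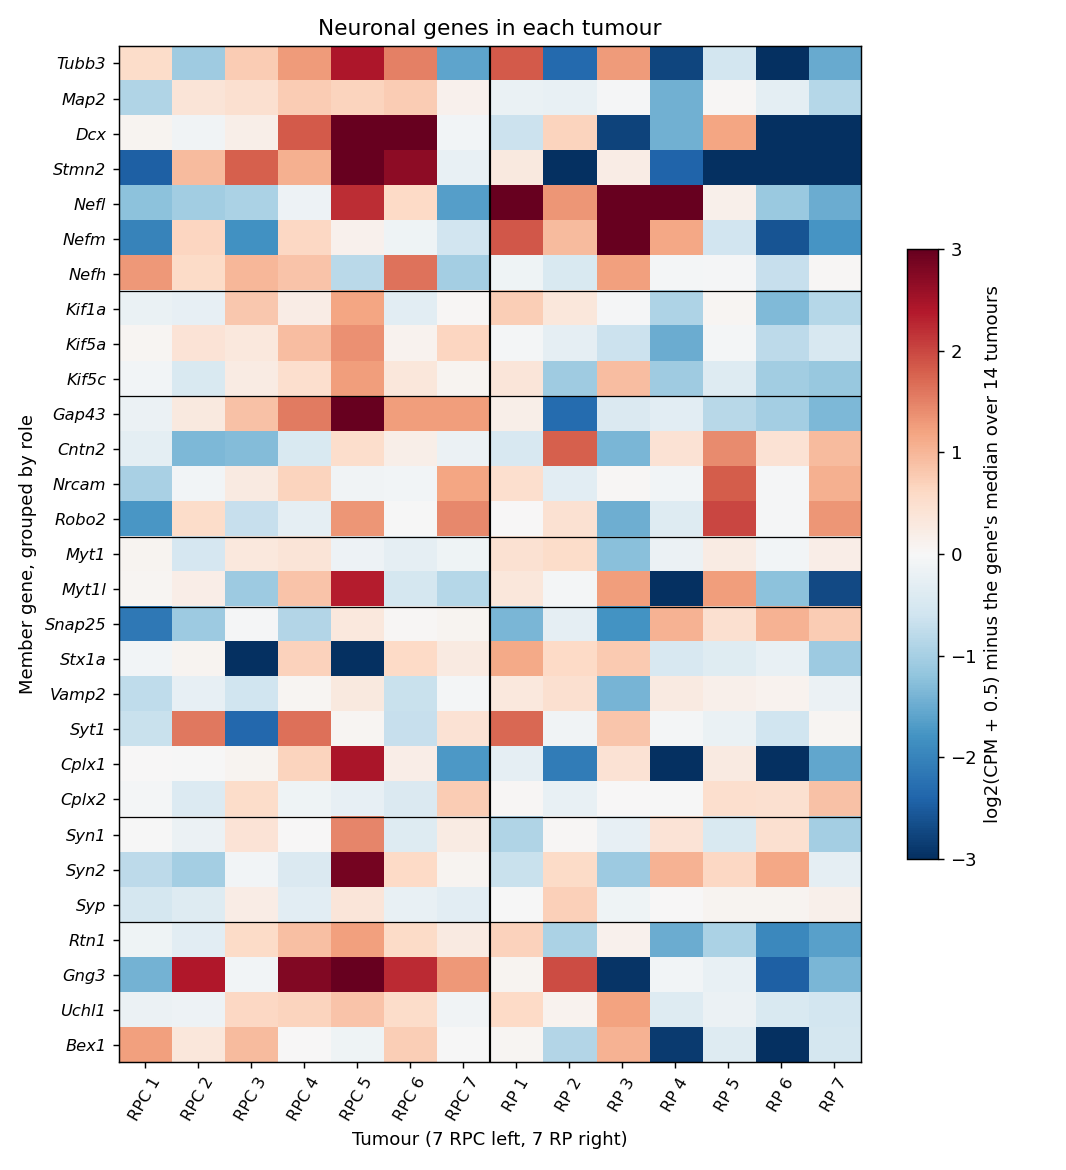
Each cell is the log2 of CPM plus 0.5 of a member in a tumour, minus the gene's median over the 14 tumours, with RPC tumours left and RP tumours right of the line and genes grouped by role. RPC tumour 5 is red for most of the cytoskeletal, motor and growth cone genes, and RP tumours 4, 6 and 7 are blue for many of them, while Snap25 and Syn2 are blue in RP tumours 1 and 3.

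The members differed widely in abundance. Per kilobase of the longest annotated transcript, Uchl1 was the most abundant, with a mean of 507 CPM per kb in RPC tumours and 440.2 CPM per kb in RP tumours. Cplx2, Bex1, Tubb3 and Vamp2 followed in RPC tumours with 189.7, 128, 94.8 and 93.2 CPM per kb, and they had 219, 66.5, 48.4 and 115 CPM per kb in RP tumours. The light neurofilament gene Nefl was the least abundant of those tested in RPC tumours, at 0.439 CPM per kb, against 6.04 CPM per kb in RP tumours. Exons of 10 members overlap those of a gene on the other strand (Map2, Myt1l, Nefl, Nefm, Gng3, Uchl1, Syn2, Bex1, Syn1 and Syp), and since the use of strand in counting is not stated, reads of such a pair cannot be told apart.

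The CRE, the site bound by CREB, and the RE1, the site bound by REST, were looked for in the members' promoters, because Crebbp is a CREB-binding coactivator and REST is the known repressor of this programme. RefSeq promoter windows (GRCm38.p6, 250 bases before to 50 after a start) were at hand for 23 of the 31 members, in 37 windows. The counts were made on another build, mm9, so the coordinates are those of the RefSeq table only. The CRE letters TGACGTCA, which read the same on both strands, stood in 588 of 32851 windows of all genes (1.79%). Among members they stood in those of Kif5c, a kinesin, and Syn1, a synaptic vesicle protein. The RE1 consensus, searched on both strands over its 21 positions with at most 3 differences from the 18 that are fixed, stood in 31 windows (0.0944%). Among members it was found in Syn1 with 1 difference and in the axon guidance receptor gene Robo2 with 3. The 3 promoters that hold a match are shown because they carry the letters themselves, on the gene's strand, with the matches in capitals and transcribed bases left out. The Kif5c stretch is chr2:49619036-49619285 (plus strand), with the CRE 26 to 19 bases before the start. The Syn1 stretch is chrX:20921005-20921168 (minus strand), with the RE1 match at 232 to 212 bases and the CRE at 159 to 152 bases before the start. The Robo2 stretch is chr16:75447294-75447543 (minus strand), with the RE1 match 79 to 59 bases before the start. Neither motif overlapped the other.
Kif5c: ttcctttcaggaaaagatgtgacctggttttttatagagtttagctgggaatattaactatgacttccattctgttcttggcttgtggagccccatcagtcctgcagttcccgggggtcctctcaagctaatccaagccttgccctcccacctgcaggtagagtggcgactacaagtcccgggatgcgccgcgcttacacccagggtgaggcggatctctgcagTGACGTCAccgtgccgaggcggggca
Syn1: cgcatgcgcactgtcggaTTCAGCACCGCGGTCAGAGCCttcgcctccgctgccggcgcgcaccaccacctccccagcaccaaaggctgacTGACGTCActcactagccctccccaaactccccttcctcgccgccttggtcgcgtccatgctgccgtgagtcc
Robo2: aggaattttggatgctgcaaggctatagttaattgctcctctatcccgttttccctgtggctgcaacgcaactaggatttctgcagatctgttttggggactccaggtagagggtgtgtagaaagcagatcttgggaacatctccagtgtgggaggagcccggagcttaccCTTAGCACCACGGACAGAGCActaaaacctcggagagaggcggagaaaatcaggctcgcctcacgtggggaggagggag
A match of letters is a description and does not show that a factor binds there. None of the 3 genes was called: the log2 fold change was 0.62 (SE 0.36) for Kif5c, 0.49 (SE 0.31) for Syn1 and -0.23 (SE 0.54) for Robo2, with edgeR adjusted p-values of 0.338, 0.382 and 0.829. These values were 0.32, 0.17 and -0.25 without RPC tumours 3, 5 and 6.

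The cytoskeletal members included Nefl and Dcx, the 2 with the widest range over the tumours. Of 7, 5 had fold changes above 0 in RPC tumours and 0 were called, with a median log2 fold change of 0.78 (0.54 without RPC tumours 3, 5 and 6). Stmn2, a growth cone protein that binds tubulin and regulates microtubule assembly, had 2.63, 35.5 and 220.1 CPM (lowest, median, highest) in RPC tumours, against 0.654, 1.28 and 20.3 CPM in RP tumours. Of the RPC tumours, 5 lay above all RP tumours, and all 7 lay above the RP median. The log2 fold change was 3.34 (SE 1.01, edgeR adjusted p = 0.0869), and 1.66 without RPC tumours 3, 5 and 6 (adjusted p = 0.542). Dcx, or doublecortin, binds microtubules in migrating young neurons and had 19.3, 23.6 and 231 CPM in RPC tumours, against 0.364, 7.25 and 47.4 CPM in RP tumours. RPC tumours 5 and 6, at 229 and 231 CPM, carried the 2 highest levels, RPC tumour 4 also lay above all RP tumours, and the other 4 RPC tumours lay within the RP range. For Dcx the log2 fold change was 2.56 (SE 0.97, edgeR adjusted p = 0.153) and 1.19 without tumours 3, 5 and 6. Between the highest and the lowest of the 14 tumours Dcx differed 633-fold. Map2, a microtubule-associated protein of dendrites, had 106, 273 and 336 CPM in RPC tumours, against 72.0, 167 and 201 CPM in RP tumours. The 6 RPC tumours other than tumour 1 lay above all RP tumours, and tumour 1 lay below the RP median. Its log2 fold change was 0.78 (SE 0.26, edgeR adjusted p = 0.116) and 0.58 without tumours 3, 5 and 6, and the adjusted p was 0.0495 without RPC tumour 1.

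The 3 neurofilament genes, whose products assemble into the intermediate filaments of axons, did not share a direction. Nefl, the light chain, had 0, 0.314 and 6.83 CPM in RPC tumours, against 0.061, 3.42 and 80.1 CPM in RP tumours. The 0 was that of RPC tumour 7, where a count of 0 allows up to 0.271 CPM (3 counts; counting error only). RP tumours 1, 3 and 4, at 32.7, 80.1 and 25.3 CPM, lay above all RPC tumours, and the other 4 RP tumours lay within the RPC range. The log2 fold change was -3.75 (SE 1.39, edgeR adjusted p = 0.144), and -5.90 without RPC tumours 3, 5 and 6 (adjusted p = 0.229). The medium chain Nefm had a log2 fold change of -1.97 (SE 0.98) and was at most 5.11 CPM in RPC tumours, against 46.0 CPM in RP tumour 3, where Nefl was also highest. The heavy chain Nefh was more abundant and had a fold change of the other sign, 0.66 (SE 0.40), with 27.0, 101 and 171 CPM in RPC tumours and 34.1, 52.7 and 131 CPM in RP tumours. Tubb3, the neuronal beta tubulin, ran from 28.2 to 455 CPM in RPC tumours and from 9.34 to 303 CPM in RP tumours. Its groups overlapped, with a log2 fold change of 0.97 (SE 0.81) that was 0.15 without RPC tumours 3, 5 and 6 and -0.25 with a term for non-tumour markers.

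**Figure D2:**
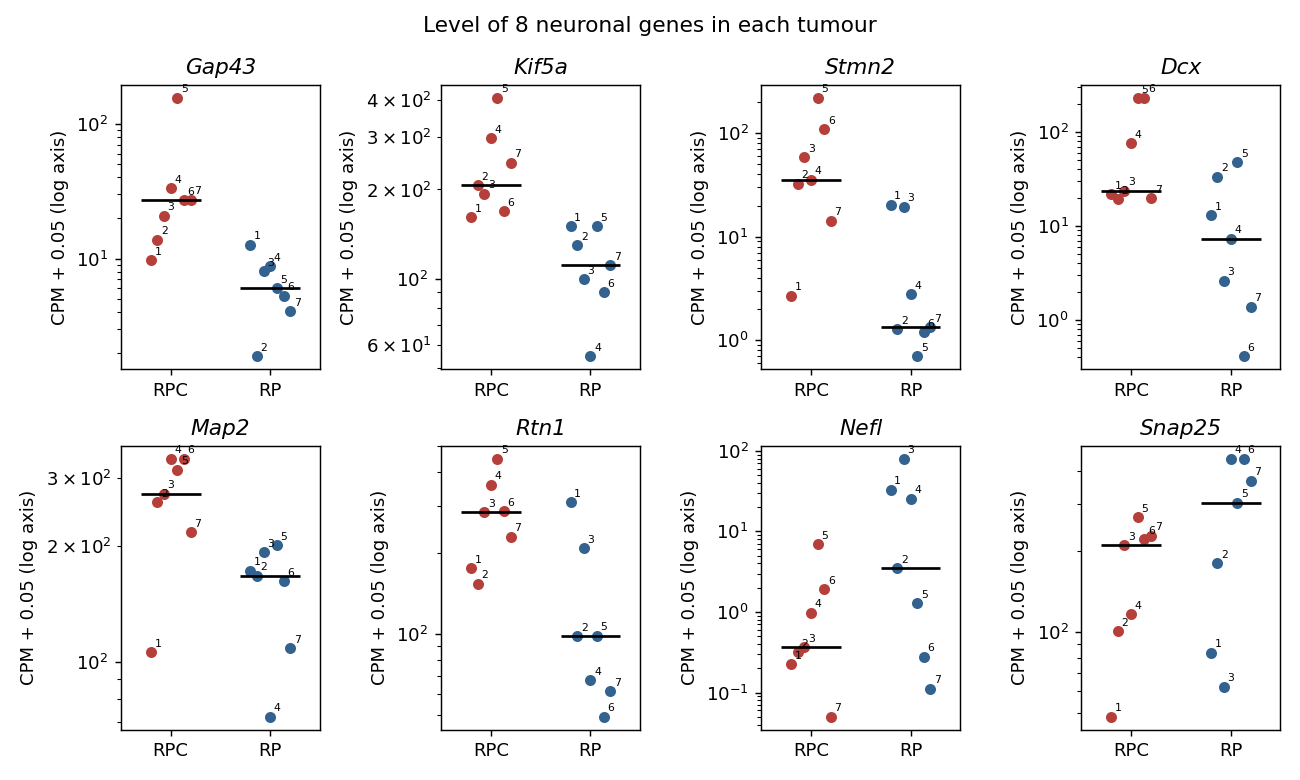
Points are single tumours (numbered), with RPC left and RP right in each panel, CPM plus 0.05 on a log axis, and the line at the group median. Kif5a separates the genotypes, with the lowest RPC tumour at 162 CPM and the highest RP tumour at 151 CPM, and for Gap43 6 of 7 RPC tumours lie above all RP tumours.

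Kif5a was the member with the smallest p. It encodes a neuron-specific heavy chain of kinesin-1, the motor that carries cargo, neurofilaments among it, out along the axon. It had 162, 206 and 407 CPM in RPC tumours, against 54.9, 111 and 151 CPM in RP tumours. All 7 RPC tumours lay above all 7 RP tumours, as 0.52% of all genes tested did, and Kif5a was the only member whose groups did not overlap. Means were 240.2 ± 87.3 CPM in RPC tumours and 112 ± 34.5 CPM in RP tumours (SD, n = 7 each). The log2 fold change was 1.10 (SE 0.25, edgeR adjusted p = 0.0383). Its size changed little without RPC tumours 3, 5 and 6 (1.02, adjusted p = 0.161) or with a term for non-tumour markers (1.0, adjusted p = 0.239), but it was not called in either. The call was also lost when RP tumour 2, 4, 5, 6 or 7 or RPC tumour 2, 3, 4 or 5 was left out, at adjusted p-values of 0.0514 to 0.0896, with log2 fold changes of 0.92 to 1.18 over all 14 such fits. The other motors were not called. Kif5c, a second neuronal kinesin-1, had 110.2, 178 and 359 CPM in RPC tumours and 68.3, 73.0 and 286 CPM in RP tumours. All 7 RPC tumours lay above the RP median, yet RP tumours 1, 3 and 5 lay within the RPC range. Kif1a, the motor of synaptic vesicle precursors and 1 of the 4 members of highest mean CPM, had 199, 252 and 559 CPM in RPC tumours and 97.7, 242 and 415 CPM in RP tumours. The groups overlapped, and the log2 fold change of 0.44 (SE 0.34) was 0.087 without RPC tumours 3, 5 and 6.

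Gap43 was the member called with the larger change. It is a membrane protein of the growth cone and a long-used marker of axon growth and regeneration. It had 9.65, 27.1 and 156 CPM in RPC tumours, against 1.84, 5.95 and 12.6 CPM in RP tumours. Only RPC tumour 1 fell within the RP range, below RP tumour 1, and RPC tumour 5 carried the highest level. Means were 41.1 ± 51.3 CPM in RPC tumours and 6.63 ± 3.52 CPM in RP tumours (SD, n = 7 each). The log2 fold change was 2.63 (SE 0.61, edgeR adjusted p = 0.0405). Without RPC tumour 5 it was 1.73 (adjusted p = 0.0563), without RPC tumours 3, 5 and 6 it was 1.66 (adjusted p = 0.187), and with a term for non-tumour markers 1.62 (adjusted p = 0.344). limma-voom gave 2.21 and did not call it (adjusted p = 0.087). The call was lost when RP tumour 2, 4, 5, 6 or 7 or RPC tumour 3, 4, 5 or 6 was left out, at adjusted p-values of 0.0559 to 0.0926. The adhesion and guidance members had fold changes below 0. Cntn2, an axonal adhesion molecule of the contactin family, had 3.79, 8.38 and 15.3 CPM in RPC tumours and 3.73, 14.2 and 37.6 CPM in RP tumours, and 6 of 7 RPC tumours lay under the RP median of 14.2 CPM. Its log2 fold change was -1.07 (SE 0.47, edgeR adjusted p = 0.204). Nrcam, a cell adhesion molecule of the L1 family, and Robo2, the receptor of the repellent Slit, differed little between the medians: 39.8 and 43.1 CPM in RPC tumours and 43.4 and 44.0 CPM in RP tumours. RP tumour 5 held the highest level of both, at 152 CPM for Nrcam and 177 CPM for Robo2.

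Of the 4 transcription factors, Myt1, a zinc finger factor of neurogenesis, had 64.4 to 119.9 CPM in RPC tumours. In RP tumours it had 37.8 to 135 CPM, lowest in tumour 3, and its log2 fold change was -0.09 (SE 0.23). Its relative Myt1l, which represses non-neuronal genes in neurons, ran from 9.62 to 109 CPM in RPC tumours and from 0.394 to 50.5 CPM in RP tumours. For Myt1l it was 0.52 (SE 0.80), and -0.19 without RPC tumour 5. Nhlh1 and Nhlh2, helix-loop-helix factors of young neurons, were near the limit of detection. Nhlh1 was between 0.088 and 2.24 CPM in RPC tumours and between 0.039 and 0.577 CPM in RP tumours. Nhlh2 was between 0.044 and 0.452 CPM in RPC tumours and between 0.061 and 0.351 CPM in RP tumours.

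The genes of vesicle fusion showed no call and a median log2 fold change of -0.25 over 6 members, 2 of them above 0 (-0.068 and 3 of 6 without RPC tumours 3, 5 and 6). Cplx2, a complexin that clamps and then promotes SNARE-driven fusion, had the highest CPM of all members, with 659, 809 and 1502 CPM in RPC tumours and 758, 906 and 1627 CPM in RP tumours. It varied only 2.47-fold over the 14 tumours. Its groups overlapped, with 3 RPC tumours below all RP tumours (log2 fold change -0.21, SE 0.23). Its relative Cplx1 was lower in level and far more variable, at 12.7, 45.3 and 235 CPM in RPC tumours and 0.774, 14.2 and 57.9 CPM in RP tumours. For Cplx1 it was 1.54 on the log2 scale (SE 0.80, edgeR adjusted p = 0.285), and 0.77 without RPC tumours 3, 5 and 6. Syt1, the calcium sensor of fast release and also among the 4 most abundant, had 32.4, 174 and 524 CPM in RPC tumours and 110.2, 160.5 and 550.4 CPM in RP tumours. RPC tumours 2 and 4 and RP tumour 1 stood at 505, 524 and 550.4 CPM, and the genotypes did not separate (log2 fold change 0.07, SE 0.54). The sign of that change turned when any of 6 tumours was left out. Of the SNARE proteins themselves, Snap25 had 48.2, 211 and 268 CPM in RPC tumours and 62.4, 304 and 444 CPM in RP tumours, and no RPC tumour exceeded the RP median. RP tumours 1 and 3 were as low as the lower RPC tumours, and the log2 fold change was -0.66 (SE 0.46, edgeR adjusted p = 0.427), and -1.12 without RPC tumours 3, 5 and 6 (adjusted p = 0.469). Stx1a, the syntaxin of the complex, was at 0.732 and 2.28 CPM in RPC tumours 3 and 5, against 39.4 to 67.6 CPM in the other 5 RPC tumours and 19.2 to 92.1 CPM in RP tumours (log2 fold change -0.37, SE 0.69, and 0.034 without RPC tumours 3, 5 and 6). Vamp2, the vesicle SNARE, ran from 142 to 297 CPM in RPC tumours and from 91.3 to 341 CPM in RP tumours, with a log2 fold change of -0.30 (SE 0.25).

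The 3 synaptic vesicle members were not called, and 2 of them had fold changes above 0, or 1 without RPC tumours 3, 5 and 6. Syp, synaptophysin, a vesicle membrane protein used to diagnose neuroendocrine tumours, was the most even, at 116, 134 and 215 CPM in RPC tumours and 152, 177 and 275 CPM in RP tumours. Of the RPC tumours, 5 lay below all RP tumours, while tumours 3 and 5 lay within the RP range, and the log2 fold change was -0.29 (SE 0.17, edgeR adjusted p = 0.342). Without RPC tumours 3, 5 and 6 it was -0.54 (adjusted p = 0.223). The synapsins Syn1 and Syn2 tether vesicles to the cytoskeleton. Syn1 had 44.4, 59.3 and 162 CPM in RPC tumours and 28.7, 49.3 and 82.4 CPM in RP tumours. Syn2 had 21.7, 42.0 and 326 CPM in RPC tumours and 20.6, 66.0 and 99.3 CPM in RP tumours. The 326 CPM was that of RPC tumour 5, and the log2 fold change of Syn2, 0.45 (SE 0.60) over all tumours, was -0.58 without it.

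The remaining 4 members had fold changes above 0 in RPC tumours, with a median log2 fold change of 1.03, and 0 of them were called. The median was 0.88 without RPC tumours 3, 5 and 6, with 3 of 4 above 0. Rtn1, a reticulon of the endoplasmic reticulum that is abundant in neuroendocrine cells, had 154, 283 and 448 CPM in RPC tumours and 49.3, 98.4 and 308 CPM in RP tumours. All 7 RPC tumours lay above the RP median, and RP tumours 1 and 3, at 308 and 208 CPM, lay within the RPC range. The log2 fold change was 1.12 (SE 0.40, edgeR adjusted p = 0.133), 0.85 without RPC tumours 3, 5 and 6, and 1.52 without RP tumour 1 (adjusted p = 0.0463). Gng3, a G protein gamma subunit of neurons, had 2.85, 41.6 and 169 CPM in RPC tumours and 0.663, 7.19 and 34.6 CPM in RP tumours. Of the RPC tumours, 4 lay above all RP tumours, and the fold change was 2.48 on the log2 scale (SE 0.90, edgeR adjusted p = 0.138), or 1.88 without tumours 3, 5 and 6. Its exons overlap Bscl2 on the other strand. Uchl1, the neuronal deubiquitinase also known as PGP9.5, had 405, 673 and 831 CPM in RPC tumours and 313, 402 and 1053 CPM in RP tumours. RP tumour 3 held the highest level, the groups overlapped, and the log2 fold change was 0.20 (SE 0.29) and -0.077 without RPC tumours 3, 5 and 6. Bex1, a small neuronal adaptor protein, had 70.0, 97.4 and 179 CPM in RPC tumours and 1.87, 53.3 and 159 CPM in RP tumours, with RP tumours 4 and 6 the lowest. Its log2 fold change was 0.95 (SE 0.62).

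**Figure D3:**
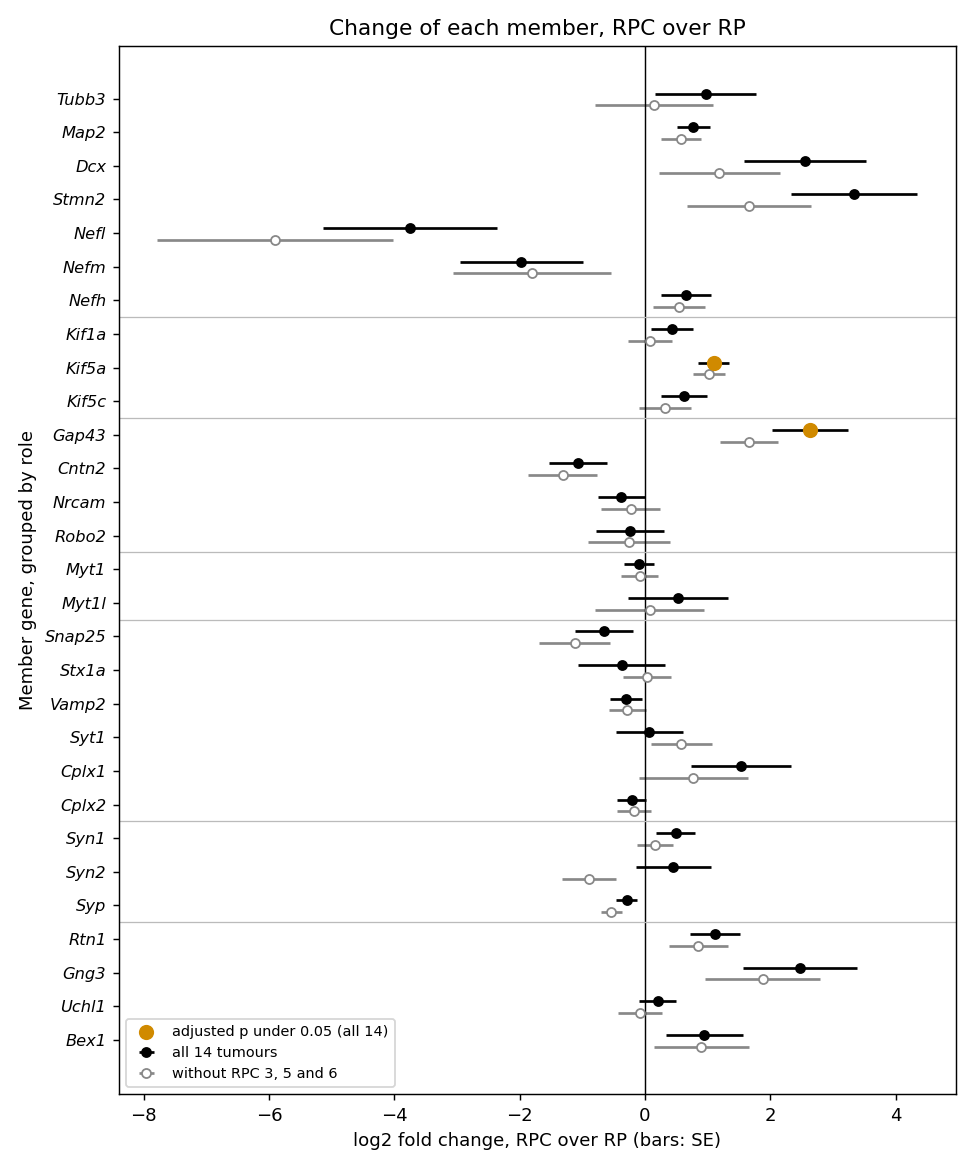
Log2 fold changes of RPC over RP with their SE for the 29 members tested, grouped by role, over all 14 tumours (black) and without RPC tumours 3, 5 and 6 (open), with the members called over all 14 tumours in orange. Kif5a stays near 1 in both fits, Gap43, Stmn2 and Dcx have smaller values without the 3 tumours, and Syn2 changes sign.

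Tumours were also compared by the median over the 29 members of log2 CPM minus each gene's median, a level for the programme as a whole that was described and not tested. It was highest in RPC tumour 5, at 1.18, followed by RPC tumour 4 at 0.66, and lowest in RP tumours 7 and 6, at -0.86 and -0.69. The other RPC tumours lay between -0.19 and 0.24 and the other RP tumours between -0.34 and 0.19, so that the genotypes overlapped. Group means were 0.29 ± 0.48 for RPC and -0.24 ± 0.40 for RP (SD, n = 7 each). Relative to library sizes after TMM scaling, the members' counts came to 0.327% to 0.705% in RPC tumours and 0.320% to 0.492% in RP tumours. RPC tumour 5 held the highest level of 12 of the 29 members and RP tumour 6 the lowest of 7. RPC tumour 4, which had macrophage markers of 407 CPM and was not among the 3 that stood apart, had 22 of 29 members above their median, and RPC tumour 5 had 23. Among genes that are not members, those whose log2 CPM followed this level most closely over the 14 tumours were Ttc3, a ubiquitin ligase (Pearson r 0.92), Dpf1, the neuronal subunit of the BAF remodelling complex (0.90), Kif1b, a kinesin of vesicle and organelle transport (0.89), Rufy3, an adaptor of axon growth (0.88), and Cacna1b, the channel pore of N-type calcium currents (0.87). They were the 5 highest of 10488 genes with a mean of at least 10 CPM, and 0 of them were called. In such a comparison the genes share the depth, the tissue content and the genotype of each tumour, which differ between tumours. Without RPC tumour 5 these r values were 0.80 to 0.93.

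The members did not vary as a single block. Of 406 pairs, 80 (19.7%) had a Pearson r of at least 0.7 in log2 CPM within RPC tumours and 59 (14.5%) within RP tumours, where 6.03% and 6.01% of all gene pairs did. At -0.7 or less were 11 pairs (2.71%) within RPC tumours and 34 (8.37%) within RP tumours, against 5.49% and 5.79% of all pairs. With 7 tumours each, 0 of the 812 correlations over both genotypes passed adjustment (exact two-sided permutation test, smallest adjusted p = 0.0537), while 66 in RPC tumours and 59 in RP tumours had an unadjusted p under 0.05. Map2 with Myt1l in RP tumours was among the pairs tied at the smallest p that 7 tumours gave here (Pearson r 0.98, Spearman rho 1, exact permutation p = 0.000198), as were Kif5a with Vamp2 and Kif5c with Rtn1 in RPC tumours. Snap25 and Syn2 accounted for most of the negative pairs in RP tumours, with 11 and 9 partners at -0.7 or less. The pair Snap25 and Uchl1, singled out after its values were seen, had a Pearson r of 0.60 and Spearman rho of 0.64 in RPC tumours (exact permutation p = 0.127, adjusted p = 0.407). In RP tumours r was -0.97 and rho -0.89 (exact permutation p = 0.000992, adjusted p = 0.134). Without the 2 tumours farthest from the Snap25 median, r was -0.10 in RPC tumours and -0.91 in RP tumours. The difference between the genotypes was not tested. In these RP tumours the highest Uchl1, Tubb3 and Rtn1 levels fell to tumours 1 and 3, where Snap25 was at 83.7 and 62.4 CPM, while tumours 4, 6 and 7 combined 366 to 444 CPM of Snap25 with 313 to 350.1 CPM of Uchl1.

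**Figure D4:**
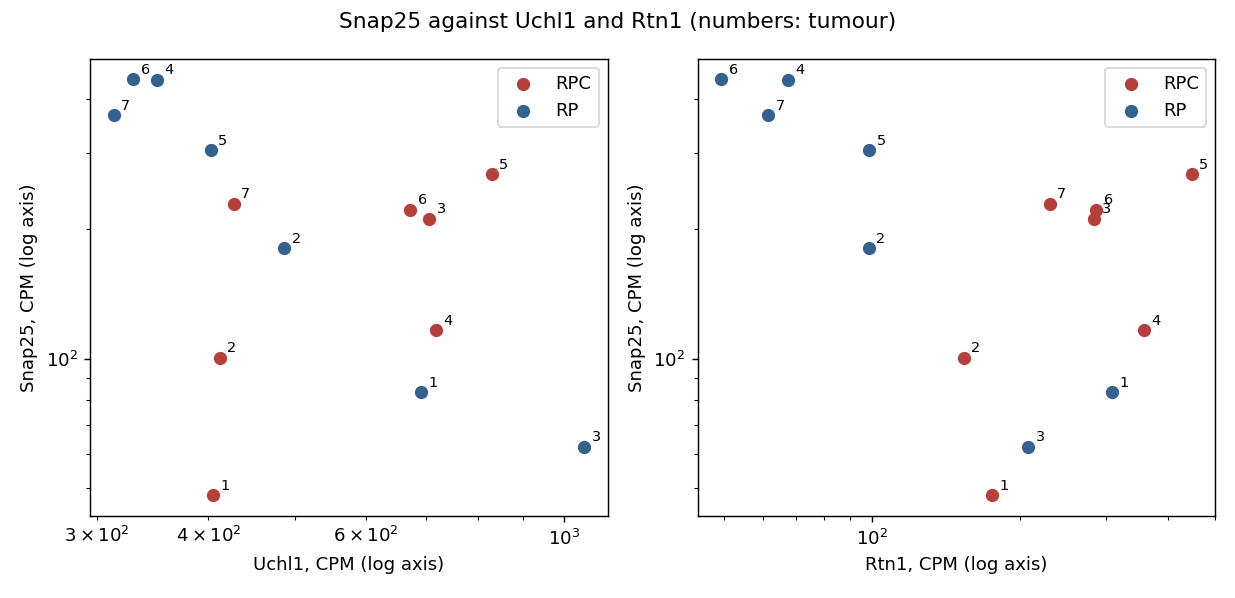
Each point is a tumour (numbered; RPC red, RP blue), with Snap25 against Uchl1 on the left and against Rtn1 on the right, in CPM on log axes. RP tumours run from high Snap25 and low Uchl1 in tumours 4, 6 and 7 to the reverse in tumours 1 and 3, and RPC tumours are more scattered, with tumour 1 low in Snap25 and Uchl1 and tumours 3, 5 and 6 high in Uchl1 with 211 to 268 CPM of Snap25.

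The same roles were then read in 113 further neuronal genes, of which 105 were tested. Of these, 2 were higher in RPC tumours and 1 was lower, and 68 had fold changes above 0, with a median log2 fold change of 0.30. Over all genes tested 2.21% were called and 50.2% were above 0. Without RPC tumours 3, 5 and 6 the median was 0.041, with 59 of 105 above 0. Cytoskeletal genes were above 0 for 17 of 19, with a median of 0.40, and transport motors for 7 of 8, with a median of 0.60. Without the 3 tumours these were 16 of 19 with 0.25 and 7 of 8 with 0.37. Axon adhesion and guidance genes were above 0 for 13 of 19 (median 0.65) and neuronal transcription factors for 8 of 9 (median 0.65). Without the 3 tumours they were 12 of 19 (0.16) and 3 of 9 (-0.31), so that the median of the transcription factors changed sign. Genes of vesicle fusion were above 0 for 8 of 18, those of the vesicle and active zone for 7 of 16 and those of the postsynapse and synapse adhesion for 8 of 16, with medians of -0.11, -0.087 and 0.034. Without the 3 tumours the counts were 6, 6 and 9 and the medians -0.093, -0.24 and 0.012. Dpysl3, a collapsin response mediator of the growth cone, had 8.42, 17.2 and 196 CPM in RPC tumours and 2.28, 4.82 and 11.8 CPM in RP tumours (log2 fold change 3.02, SE 0.70, edgeR adjusted p = 0.041). Epha7, a receptor of repulsive axon guidance, had 0.452, 6.35 and 66.7 CPM in RPC tumours and 0.216, 0.58 and 1.14 CPM in RP tumours (4.98, SE 1.05, adjusted p = 0.0286). It was thus near the limit of detection in RP tumours, and it did not pass the alternative filter of 1 CPM in 7 libraries. Unc5a, a netrin receptor of axon repulsion, was lower, with 21.4, 33.6 and 95.7 CPM in RPC tumours and 66.5, 148 and 174 CPM in RP tumours (-1.59, SE 0.33, adjusted p = 0.0285). Without RPC tumours 3, 5 and 6 the 3 log2 fold changes were 1.02, 1.99 and -1.25, and 0 of them were called. Dpysl3 was also not called without RPC tumour 3, 5 or 6 or any RP tumour but tumour 3, Epha7 not without RPC tumour 3 or 6 or any RP tumour but tumour 3, and Unc5a not without RPC tumour 3, 5 or 6 or RP tumour 2, 5, 6 or 7, at adjusted p-values of 0.0511 to 0.0909. limma-voom called Unc5a (-1.68, adjusted p = 0.0182) but neither Dpysl3 (2.40, adjusted p = 0.0939) nor Epha7 (3.10, adjusted p = 0.195).

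The genes with the smallest p in the other related lists did not pass the test. Among further cytoskeletal genes Dclk1, a kinase related to doublecortin, came nearest, at 2.31 on the log2 scale (SE 0.60, edgeR adjusted p = 0.0573), with 12.5 to 177 CPM in RPC tumours and 4.24 to 28.4 CPM in RP tumours. The motors Kif3a and Kif21a had 0.52 (SE 0.15) and 0.89 (SE 0.29). For the transcription factors Onecut2 and Lhx2 the values were 0.74 (SE 0.24) and 0.65 (SE 0.37). Snap91, a clathrin adaptor of vesicle recycling, had 0.84 (SE 0.28) and Rab3b, a GTPase of exocytosis, -1.01 (SE 0.36). Amph, or amphiphysin, and Bsn, the active zone scaffold bassoon, had 0.76 (SE 0.26) and 0.61 (SE 0.23). The presynaptic adhesion genes Nrxn2 and Nrxn3 had 1.29 (SE 0.39) and 2.66 (SE 0.96). Without RPC tumours 3, 5 and 6 the log2 fold change was 1.48 for Dclk1, 0.40 for Onecut2, 0.39 for Lhx2, 0.40 for Snap91 and 0.65 for Nrxn2. Shank1, a postsynaptic scaffold named after its values were seen, was at 0.209 to 85.6 CPM in RPC tumours, under all RP tumours at 107 to 197 CPM, as for 0.621% of all genes tested, and was not called (log2 fold change -1.95, SE 0.87, edgeR adjusted p = 0.213). limma-voom called it (-3.88, adjusted p = 0.0349), and without RPC tumours 3, 5 and 6 it was -1.78 in edgeR (adjusted p = 0.322).

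**Figure D5:**
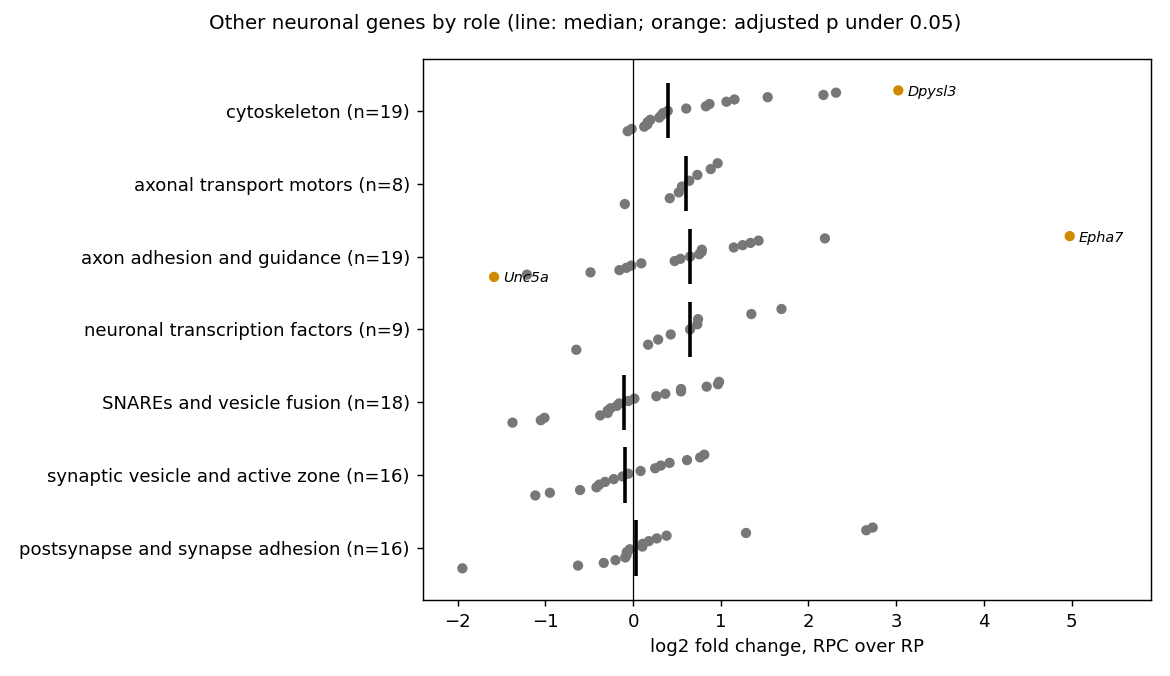
Points are the log2 fold changes of RPC over RP of 105 further neuronal genes by role, with the line at the median of each list and genes at an adjusted p under 0.05 in orange. Cytoskeletal and motor genes lie mostly right of 0, with medians of 0.40 and 0.60 (0.25 and 0.37 without RPC tumours 3, 5 and 6), and the lists of vesicle fusion and of the vesicle and active zone centre near 0.

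Of 14 known regulators of neuronal genes, 1 was called, where 2.21% of all genes tested were. Celf3, an RNA-binding protein of neuronal splicing, was lower in RPC tumours, with 104, 148 and 222 CPM, against 191, 354 and 493 CPM in RP tumours. Only 1 RPC tumour lay within the RP range, and the log2 fold change was -1.13 (SE 0.22, edgeR adjusted p = 0.0244). It was -0.92 without RPC tumours 3, 5 and 6 (adjusted p = 0.179) and was not called without RP tumour 6 or RPC tumour 3 (adjusted p = 0.051 and 0.0516). Rest, the repressor of the programme, had 0.357, 6.58 and 11.7 CPM in RPC tumours and 0.702, 1.38 and 4.33 CPM in RP tumours. Of the RPC tumours, 4 lay above all RP tumours and 1 below, and its log2 fold change, 1.41 (SE 0.64, edgeR adjusted p = 0.221), was 2.0 without RPC tumours 3, 5 and 6.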

How the data were processed

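RNA of 14 tumours was extracted with TRIzol, selected with oligo-dT and made into libraries with a NEBNext Ultra kit, per the labels' protocols. The deposited files hold raw read counts per gene. Per the submitters' processing notes, the authors used bcl2fastq 1.8.2, TopHat2 2.0.12 and HTSeq 0.6.1 with mm9; the sources used here give no settings, annotation or strand. Each file's 5 rows without a gene name were left out: reads outside genes were 15.1% to 20.5%, those aligning more than once 8.44% to 11.2% and ambiguous ones 0.883% to 1.09%.

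Counts were tested in edgeR 4.0.16 (R 4.3.3) with filterByExpr (minimum count 10, minimum total 15), TMM scaling and quasi-likelihood F tests, RPC against RP, over 14 libraries with no covariate, adjusted by Benjamini-Hochberg over 14804 genes and called at 0.05. The SE is the size of the log2 fold change over the root of F. CPM used TMM-scaled library sizes, and log2 CPM a prior count of 2. Levels per kb used the longest GENCODE M21 transcript.

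The members and lists were chosen with earlier results of these data known. Named in full were called members, the 8 of smallest p, the 4 of highest mean CPM and the 2 of widest range; in related lists, called genes and the 2 of smallest p; and Rest with called regulators. Alternatives were RLE and upper-quartile scaling, 2 filters (none; 1 CPM in 7 libraries), DESeq2 1.42.0, limma-voom (limma 3.58.1), robust empirical Bayes, the replicate number as a block, a mean of 33 non-tumour markers as a covariate, and leaving out each library or RPC tumours 3, 5 and 6. Correlations were run within each genotype, and leaving out RPC tumour 5 in correlations was added after seeing the data. Libraries of 1 genotype did not repeat each other (chi-square per degree of freedom at least 62.1 over 42 pairs). The fit was tested on simulated counts with known changes. It called 26 of 96 genes with a 2-fold change, 71 of 102 with a 4-fold change and 0 of 14401 without a change. A gene that was not called is therefore not shown to be unchanged. Besides the genes that the naming rule leaves out, 1 gene of the regulator list is not reported here.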

Additional observations from a re-analysis of the deposited data

Results flagged for a closer look

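In 6 of 58 groups of 7 tumours (29 members in each genotype), the highest or lowest tumour stood far from the rest, by the size of its gap to the nearest other relative to the group's range (Dixon's test). Gap and range were taken on the log2 scale, while the levels below are in CPM. A tumour far from the rest in CPM alone was therefore not flagged. Chance flags about 1 in 20 groups. In RPC tumours, Map2 was at 105.7 CPM in tumour 1, against 216 to 336 CPM in the other 6, and Syn2 was at 326 CPM in tumour 5, against 21.7 to 67.2 CPM. In RP tumours, 3 of the 4 values were those of tumour 3: Nefh at 130.6 CPM (34.1 to 56.7 in the others), Myt1 at 37.8 CPM (80.7 to 135) and Vamp2 at 91.3 CPM (215 to 341). The fourth was Syp at 274.7 CPM in RP tumour 2, against 152 to 186 CPM. What lies behind these values was not tested.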

How the results depend on the processing

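Replicate numbers are shared by the genotypes, and same-numbered tumours correlated in their deviations at -0.05 to 0.32. Tumours of different numbers were not compared in this way, so these values do not settle whether the numbers pair the tumours. The replicate block served only as an alternative. Genes called went to 1431 with DESeq2, 503 with limma-voom, 74 with the replicate block, 11 without RPC tumours 3, 5 and 6, and 7 with the non-tumour term, against 327. Those higher in RPC were 689 (DESeq2), 23 (block), 3 (without the 3 tumours) and 3 (non-tumour term), against 161. Those lower were 742, 51, 8 and 4, and 292 with limma-voom, against 166. Members called were 7 with DESeq2 (6 higher, 1 lower), 1 with limma-voom, 0 with the block (Kif5a 1.09, adjusted p 0.074; Gap43 2.24, adjusted p 0.0797), 0 without the 3 tumours and 0 with the non-tumour term, against 2. Related genes called were 16 with DESeq2, 3 with limma-voom (Ina higher, Unc5a and Shank1 lower, so that only Unc5a was shared with edgeR), 1 with the block and 0 in the other 2, against 3, and regulators 4 with DESeq2, 3 with limma-voom and 0 in those 2, against 1. Leaving out each tumour in turn gave 51 to 898 genes (24 to 481 higher, 27 to 434 lower), 0 to 3 members (0 to 3 higher, 0 to 0 lower), 0 to 7 related genes and 0 to 2 regulators. Signs turned for members that were not called. With the non-tumour term, the log2 fold change was -0.25 for Tubb3, -0.094 for Myt1l, -0.85 for Syn2 and -0.19 for Uchl1. Without the 3 tumours it was 0.034 for Stx1a, -0.89 for Syn2 and -0.077 for Uchl1. limma-voom gave -0.23 for Syt1 and -0.029 for Syn2, and the replicate block -0.13 for Syt1 and -0.048 for Syn2. Leaving out each tumour gave -0.50 to 0.21 for Robo2 (above 0 without RP tumour 5), -0.19 to 0.85 for Myt1l and -0.58 to 0.62 for Syn2 (both below 0 without RPC tumour 5) and -0.25 to 0.47 for Syt1 (below 0 when 1 of RPC tumours 2 and 4 or RP tumours 2, 4, 5 and 6 was left out). The cause was not tested. Scaling by RLE or upper quartile, either filter and robust empirical Bayes turned no member's sign and left the members called at 2.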
